A study of Homo sapiens with 36 samples.

Results

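The secreted WNT inhibitors DKK1, DKK3 and SFRP1, the ligands WNT5A and WNT5B, the receptors ROR1 and ROR2, the nuclear factors LEF1 and TCF4, and the feedback gene AXIN2 were followed in 3 BRAF-mutant human melanoma cell lines under MAPK-targeted therapy. These 10 genes were picked by symbol from the 60656 genes in the files, and all 10 were measured and passed the filter on low values in each line. The lines were 1205LuTR-NR2F1, WM793TR-NR2F1 and A375TR-NR2F1, called 1205Lu, WM793 and A375 below. Each carried the Tet repressor and a lentiviral NR2F1 cDNA that doxycycline (DOX) switches on. NR2F1 is an orphan nuclear receptor that the study examined for its part in drug tolerance. The 4 treatments of each line were DMSO or BRAFi + MEKi, each with and without DOX, with 3 replicate libraries per group and 36 in all. BRAFi + MEKi was PLX4720 at 1 µM with PD0325901 at 35 nM for 72 hours, and DOX was given at 100 ng/mL from 24 hours before. The labels put DOX in that first period only in the DOX groups, while the methods describe it with no group set apart.

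Several limits come from the design. All cells that received DOX carried the NR2F1 cDNA, so DOX itself and NR2F1 cannot be told apart. 1205Lu and WM793 grew in a different medium from A375, so line and medium cannot be told apart in comparisons with A375. Expression was given as 1 normalized value per gene and library. These values are RSEM estimates that the authors scaled between libraries, and they summed to between 27027824 and 34621958 per library. The methods do not state whether the scaling ran over all lines together or within each line. Levels compared between lines should therefore be read with care. The values are not read counts, so the reads behind each one are unknown. In bulk RNA, fewer expressing cells and less RNA per cell cannot be told apart.

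WNT ligands are secreted proteins that bind Frizzled receptors. In the canonical branch, binding with the co-receptors LRP5 and LRP6 stabilizes beta-catenin, which enters the nucleus, joins LEF1 or a TCF factor and switches on targets such as AXIN2. In non-canonical signalling, WNT5A and WNT5B act through the receptor tyrosine kinases ROR1 and ROR2 without beta-catenin. In melanoma, WNT5A is known for its association with invasive cells. DKK1 blocks the canonical branch by binding LRP5 and LRP6, and SFRP1 binds WNT ligands outside the cell. The symbol TCF4 names the basic helix-loop-helix factor also called E2-2. It is a different gene from TCF7L2, the beta-catenin partner that older papers call TCF4, so TCF7L2 is given beside it.

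The labels were checked with 2 genes. NR2F1 ranged from 321 to 6273 over all libraries without DOX and from 9155 to 76313 over those with it, and in each line every DOX library was above every other. In 1205Lu given DMSO the NR2F1 rise of 1.93 on the log2 scale had an adjusted p of 0.412 by limma. NR2F1 was also higher with the drugs in 1205Lu with DOX in both arms, by 1.48 (adjusted p = 0.00973). The same held in A375 without DOX, by 1.45 (adjusted p = 0.000702), and the other drug comparisons of NR2F1 did not pass. With DOX in both arms, the 1205Lu comparisons below therefore did not hold NR2F1 constant. DUSP6, an ERK-induced phosphatase, was lower under BRAFi + MEKi by 4.09 in 1205Lu, 2.25 in WM793 and 3.13 in A375 (log2). SOX10, a neural crest and melanocyte factor, was at 5684 to 24854 in every library, and MITF, the melanocyte master factor, at 68.3 to 2785. Of the pigment genes, MLANA, TYR and PMEL did not exceed 0.974, 4.90 and 153, whereas DCT ran from 0 to 13702, with means of 1.33, 13.4 and 65.9 under DMSO and 235, 3972 and 9306 under BRAFi + MEKi in 1205Lu, WM793 and A375. PMEL means in these lines were 16.8, 15.8 and 29.1 under DMSO and 47.0, 49.6 and 106 under BRAFi + MEKi. MITF means were 114, 547 and 898 under DMSO and 210, 503 and 2614 under BRAFi + MEKi. The T cell marker CD3E, the endothelial marker CDH5 and the keratinocyte marker KRT5 stayed at or below 1.19, 13.8 and 33.2, and the endothelial PECAM1, the leukocyte PTPRC and the keratinocyte KRT14 at or below 40.9, 91.0 and 244. CD68, a lysosomal macrophage marker, was at 345 to 6429, and in 1205Lu at 1919 to 2409 under DMSO and 353 to 582 under BRAFi + MEKi. In WM793 it was higher with the drugs, at 345 to 513 under DMSO and 517 to 989 under BRAFi + MEKi. In A375 the groups overlapped, at 3627 to 4427 under DMSO and 3200 to 6429 under BRAFi + MEKi. AXL, a receptor kinase of undifferentiated melanoma, had means of 6346, 3230 and 8973 under DMSO and 4099, 7742 and 2528 under BRAFi + MEKi in 1205Lu, WM793 and A375. It was thus higher with the drugs in WM793 and lower in the other lines, the directions in which DKK1 moved. NGFR, another marker, had means of 329, 331 and 1005 under DMSO and 554, 5679 and 2028 under BRAFi + MEKi in the same lines. EGFR had means of 2409, 2301 and 999 under DMSO and 1380, 1996 and 256 under BRAFi + MEKi. Neither followed DKK1, since NGFR means were higher with the drugs in every line and EGFR means lower. Of 4 fibroblast markers, THY1 was at 2597 to 4844 in WM793 and no higher than 4.69 in the other lines, PDGFRA ranged from 42.0 to 7295, LUM from 0 to 906 and DCN from 0 to 286. The part of these markers in the results was not tested.

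The promoter of DKK1 is shown because DKK1 gave the largest difference in drug response between lines among the members. DKK1 lies on the plus strand at chr10:52314281-52318042 (GRCh38). The window printed is the 250 bases before its start site at chr10:52314031-52314280, 5′ to 3′ on the plus strand, from RefSeq on GRCh38.p14. The capitals mark the letters CTTTGTT at positions -76 to -70 from the start site, which match a TCF/LEF motif.
DKK1: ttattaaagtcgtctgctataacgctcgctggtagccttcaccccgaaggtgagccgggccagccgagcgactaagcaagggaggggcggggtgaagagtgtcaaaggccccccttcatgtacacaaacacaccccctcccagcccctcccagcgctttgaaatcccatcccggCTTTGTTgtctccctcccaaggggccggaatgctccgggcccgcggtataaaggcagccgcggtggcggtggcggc
Both strands of the RefSeq windows were searched for CTTTGAT and CTTTGTT (TCF/LEF), TGANTCA (AP-1), AGGTCA (a nuclear receptor hexamer) and DR1 (the direct repeat of AGGTCA with 1 base between, which holds the hexamer). CTTTGTT was present in 4.51% of 34788 promoter windows of this length. CTTTGAT was in 2.27% of them, TGANTCA in 6.59%, AGGTCA in 12% and DR1 in 0.0115%. Among the 18 windows found for 7 members, the only other matches were TGATTCA and AGGTCA, each in 1 of the 10 TCF4 windows. The tables held no window for DKK3 or AXIN2, and SFRP1 was not searched. A match describes letters in a window and is not a binding site.

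Levels between genes were compared per kilobase of exon, with overlapping exons of all annotated transcripts merged, in the libraries given DMSO without DOX. The merged length was 2.221 kb for DKK1 and 29.166 kb for TCF4. It can exceed the length of the transcripts in use, which lowers the level given to genes with many annotated exons. The order of the members therefore depends on the annotation as well as on expression. SFRP1 was the highest member in each line, at 14665 ± 839 per kb in 1205Lu, 10056 ± 600 in WM793 and 1471 ± 345 in A375 (SD, n = 3). DKK3 came second in 1205Lu (3679 ± 351) and WM793 (467 ± 92.3), and DKK1 came second in A375 (625 ± 73.6). DKK1 was the ninth of the 10 in 1205Lu (11.1 ± 6.26) and the lowest in WM793 (5.67 ± 5.61). ROR2 was lowest in 1205Lu (2.99 ± 0.601) and in A375 (0.452 ± 0.0662), but was the fifth in WM793 (76.0 ± 8.90). WNT5A was at nearly the same level in all lines, at 225 ± 35.6, 232 ± 8.41 and 216 ± 20.1 per kb in 1205Lu, WM793 and A375. Libraries of neighbours in this order overlapped for AXIN2 and WNT5B and for TCF4 and ROR1 in 1205Lu, for TCF4 and ROR1 in A375, and for WNT5A and LEF1 and the run ROR2, TCF4, ROR1 and WNT5B in WM793.

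Between lines, DMSO levels were compared in 1 limma fit of all 36 libraries. Of the 10 members, 6 differed between 1205Lu and WM793, against 30.7% of all genes tested. With the replicate block 6 differed too, but WNT5B lost its call (adjusted p = 0.0816 instead of 0.0312) and SFRP1 gained one (0.0084 instead of 0.116). WNT5B also missed the threshold with a pseudocount of 0.1 (0.0637) and without any single DMSO library of these lines (0.0540 to 0.0946). Against A375 the number that differed was 9 for 1205Lu (46.8% of all genes, 19.4% higher and 27.4% lower) and 9 for WM793 (47.5%, 18.7% higher and 28.8% lower). WNT5A was the member that missed the threshold in both comparisons with A375, with log2 differences of 0.05 (95% interval -0.47 to 0.57) and 0.10 (-0.42 to 0.62). DKK1 stood apart in direction, with a difference from A375 of -5.87 ± 0.705 in 1205Lu (log2, SE, adjusted p = 3.56e-08) and of -7.05 ± 0.705 in WM793 (adjusted p = 1.09e-09), while the other 8 that differed were higher in both lines than in A375.

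BRAFi + MEKi was compared with DMSO in each line to ask how the members responded to MAPK inhibition. With the drugs, DKK3 rose and both SFRP1 and LEF1 fell in all 3 lines, whereas DKK1 rose in WM793 and fell in A375 and 1205Lu. Over all genes tested in every line, 5.77% were called higher and 6.07% lower in all 3 lines. By limma's moderated test, 7 members changed in 1205Lu (3 rose and 4 fell), 6 in WM793 (3 and 3) and 7 in A375 (2 and 5). The A375 falls include ROR2, which passed the filter on low values there only through its DMSO groups, and without it 6 members changed (2 rose and 4 fell). Of all genes tested, 30.9% changed in 1205Lu (16.5% rose, 14.4% fell), 37.3% in WM793 (20.4% and 16.9%) and 39.5% in A375 (20.5% and 19%). With DOX in both arms, which shares no library with the first comparison, 6 members changed in 1205Lu (28.2% of all genes), 6 in WM793 (31.7%) and 5 in A375 (31% of all genes). The median log2 change of the 10 members without DOX was -0.02, -0.22 and -0.75 in 1205Lu, WM793 and A375, beside 0.11, 0.15 and 0.06 over all genes tested. Without ROR2 the A375 median over 9 members was -0.49.

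**Figure D1:**
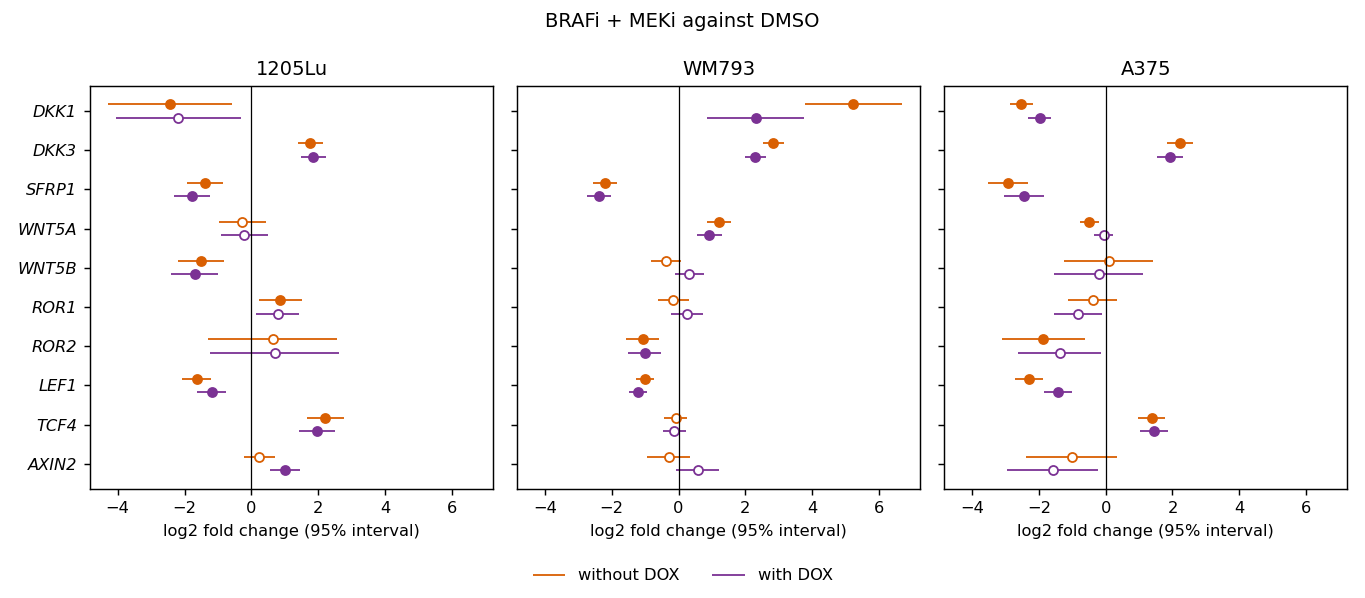
Log2 fold change of each member under BRAFi + MEKi against DMSO, on the log2(value + 1) scale, without DOX (orange) and with DOX in both arms (purple), in 3 panels for the 3 cell lines. Points are limma estimates from 3 libraries a group, bars are 95% intervals, and filled points passed an adjusted p of 0.05. DKK3 lies right of 0, and SFRP1 and LEF1 left of it, in every panel, while DKK1 is at 5.24 in WM793 and -2.53 in A375.

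DKK1 had its widest range in WM793. Its values there were 5.84, 27.0 and 4.97 under DMSO and 293, 597 and 347 under BRAFi + MEKi. The lowest treated library was more than 10 times the highest control library. The rise was 5.24 ± 0.674 (log2, SE, adjusted p = 4e-05), or 37.7-fold. The exact fold depends on the low DMSO values, and with them on the library at 27.0. In A375, DKK1 was at 1550, 1389 and 1223 under DMSO and at 264, 256 and 199 under BRAFi + MEKi, and the groups did not overlap. It fell by 2.53 ± 0.162 there (log2, adjusted p = 6.9e-08). In 1205Lu, the gene was low throughout, at 40.8, 17.6 and 15.9 under DMSO and listed at 0, 6.08 and 10.9 under BRAFi + MEKi. The change of -2.43 ± 0.865 passed narrowly (adjusted p = 0.0468), and missed the threshold in 9 of 12 fits that left out 1 library, with adjusted p up to 0.200 without BRAFi + MEKi replicate 1, the library at 0. Without that library the change was -1.36, and with a pseudocount of 0.1 it was -3.58 (adjusted p = 0.0679). PRKG1-AS1, on the opposite strand, shares 227 exon bases with DKK1, and the library kit does not mark strand. Its mean was 3.97 over all libraries, of the same order as DKK1 in 1205Lu given BRAFi + MEKi, and its part in the DKK1 values was not tested.

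With DOX in both arms, DKK1 in A375 was again lower with the drugs, at 339, 291 and 251.1 against 1287, 1162 and 1011 (change of -1.97 ± 0.162, adjusted p = 1.41e-06). For WM793 the DMSO + DOX libraries already stood at 582, 194 and 114, and those with BRAFi + MEKi + DOX at 518, 1909 and 1602. These groups overlapped, and the rise of 2.31 ± 0.674 (adjusted p = 0.0180) lost its call in some fits that left out 1 library. When replicate 2 or replicate 3 of DMSO + DOX was left out, its adjusted p was 0.0602 or 0.0883, and the same for BRAFi + MEKi + DOX gave 0.0873 or 0.0724. The rise itself was 2.17 or 1.79 in the former fits and 1.95 or 2.08 in the latter. In 1205Lu the DKK1 values were 24.7, 3.86 and 13.8 with the drugs and 30.3, 69.3 and 77.6 without, and the difference of -2.18 ± 0.865 missed the threshold (adjusted p = 0.0756). It passed with array weights (0.00315), in a fit of only the libraries compared (0.0457), and when replicate 1 given the drugs alone (0.0252) or replicate 1 given drugs and DOX (0.0478) was left out.

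**Figure D2:**
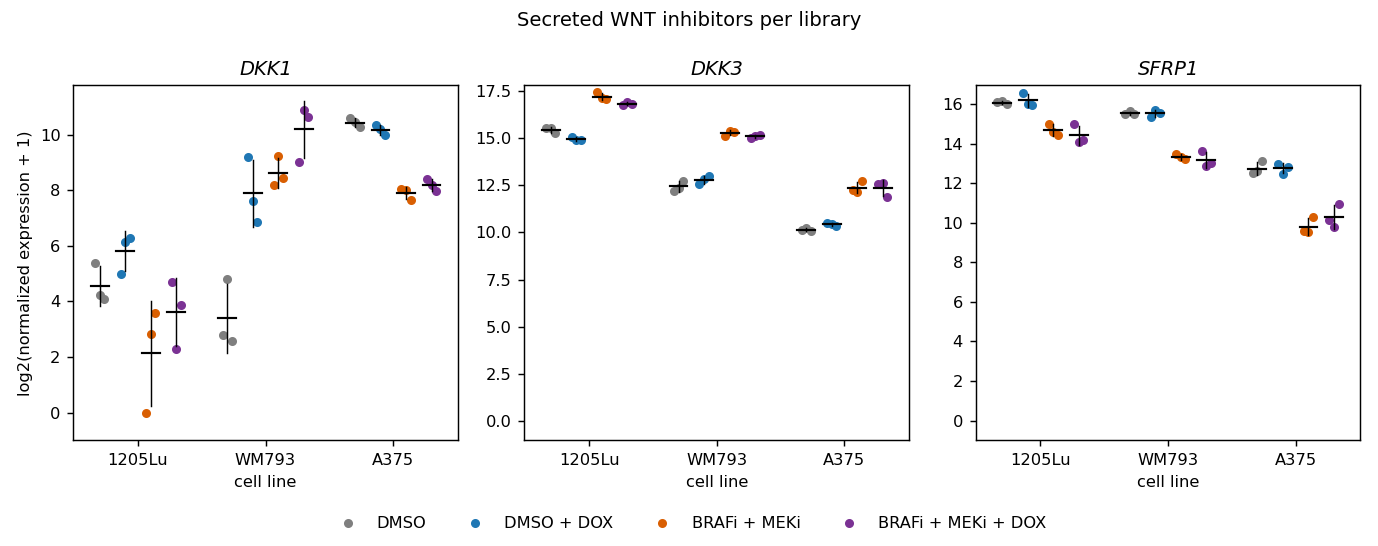
Expression of DKK1, DKK3 and SFRP1 in each library, as log2(normalized expression + 1), by cell line and treatment. Points are the 3 libraries of a group, the horizontal bar is their mean and the vertical bar 1 SD. WM793 DKK1 goes from 4.97 to 27.0 under DMSO to 114 or more in the other treatments, while SFRP1 is lower in every library with BRAFi + MEKi than in every library without it, line by line.

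DKK3, a Dickkopf family member that does not act on LRP5 and LRP6 as DKK1 does, rose in every line. Its values in 1205Lu were 46260, 46574 and 39154 under DMSO and 174183, 139910 and 134570 under BRAFi + MEKi, a rise of 1.76 ± 0.174 (log2, adjusted p = 9.2e-06). WM793 went from 4680, 5269 and 6817 to 35481, 42936 and 40679, the steepest of the 3 rises, at 2.84 ± 0.145 (adjusted p = 2.44e-08). In A375 it went from 1117, 1194 and 1092 to 4929, 4471 and 6702, by 2.22 ± 0.181 (adjusted p = 6e-07). No treated library overlapped its controls in any line, and with DOX in both arms the rises were 1.86, 2.30 and 1.92 in 1205Lu, WM793 and A375. DKK3 shares 5681 exon bases with USP47, a deubiquitinase gene on the opposite strand. USP47 itself rose by 0.72, 0.31 and 0.85 in 1205Lu, WM793 and A375, and in A375 its values of 1450 to 2762 were of the same order as those of DKK3. The part of USP47 reads in the DKK3 values was not tested.

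SFRP1, the highest member per kilobase in the DMSO libraries, fell in every line. In 1205Lu it was at 69450, 73360 and 65415 under DMSO and at 33174, 24708 and 22398 under BRAFi + MEKi, a change of -1.39 ± 0.250 (log2, adjusted p = 0.000883). The WM793 values were 45977, 50873 and 45932 against 11522, 10127 and 9528, a change of -2.20 ± 0.168 (adjusted p = 4.53e-07). In A375 they were 5855, 6196 and 8835 against 762, 745 and 1272, a change of -2.93 ± 0.275 (adjusted p = 2.14e-06). Treated and control libraries did not overlap in any line. With DOX in both arms the changes were -1.76, -2.38 and -2.45 in 1205Lu, WM793 and A375, and all passed the test.

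WNT5A differed between lines in its response. In WM793 it was at 1627, 1620 and 1727 under DMSO and at 4288, 2905 and 4549 under BRAFi + MEKi, all treated libraries lying above the controls. The rise of 1.21 ± 0.173 (log2) passed (adjusted p = 9.46e-05), as did the rise of 0.92 ± 0.173 with DOX in both arms (adjusted p = 0.00107). In A375 the values moved the other way, from 1585, 1669 and 1389 to 1153, 1068 and 1084. This change of -0.49 ± 0.137 (adjusted p = 0.0118) did not pass when libraries were rescaled to the same total (-0.33, adjusted p = 0.0854) or without DMSO replicate 2 (adjusted p = 0.0507). That rescaling moved log2 changes under BRAFi + MEKi by 0.15 in A375, 0.21 in WM793 and 0.06 in 1205Lu. With DOX in both arms, the A375 difference was -0.07 (95% interval -0.36 to 0.23). In 1205Lu, WNT5A was at 1882, 1570 and 1378 under DMSO and at 796, 1644 and 1766 under BRAFi + MEKi. These groups overlapped, with a difference of -0.27 (95% interval -0.97 to 0.43).

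WNT5B, the closest relative of WNT5A, changed in 1205Lu. There it was at 523, 625 and 511 under DMSO and at 130, 215 and 255 under BRAFi + MEKi, falling by 1.51 ± 0.326 (log2, adjusted p = 0.00315), and by 1.70 ± 0.326 with DOX in both arms (adjusted p = 0.00174). In WM793 the values were 233, 250 and 242 against 163, 202 and 191. Those groups did not overlap, but the difference of -0.38 (95% interval -0.83 to 0.06) did not pass. A375 held little WNT5B, between 1.53 and 10.8 in all 12 libraries.

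**Figure D3:**
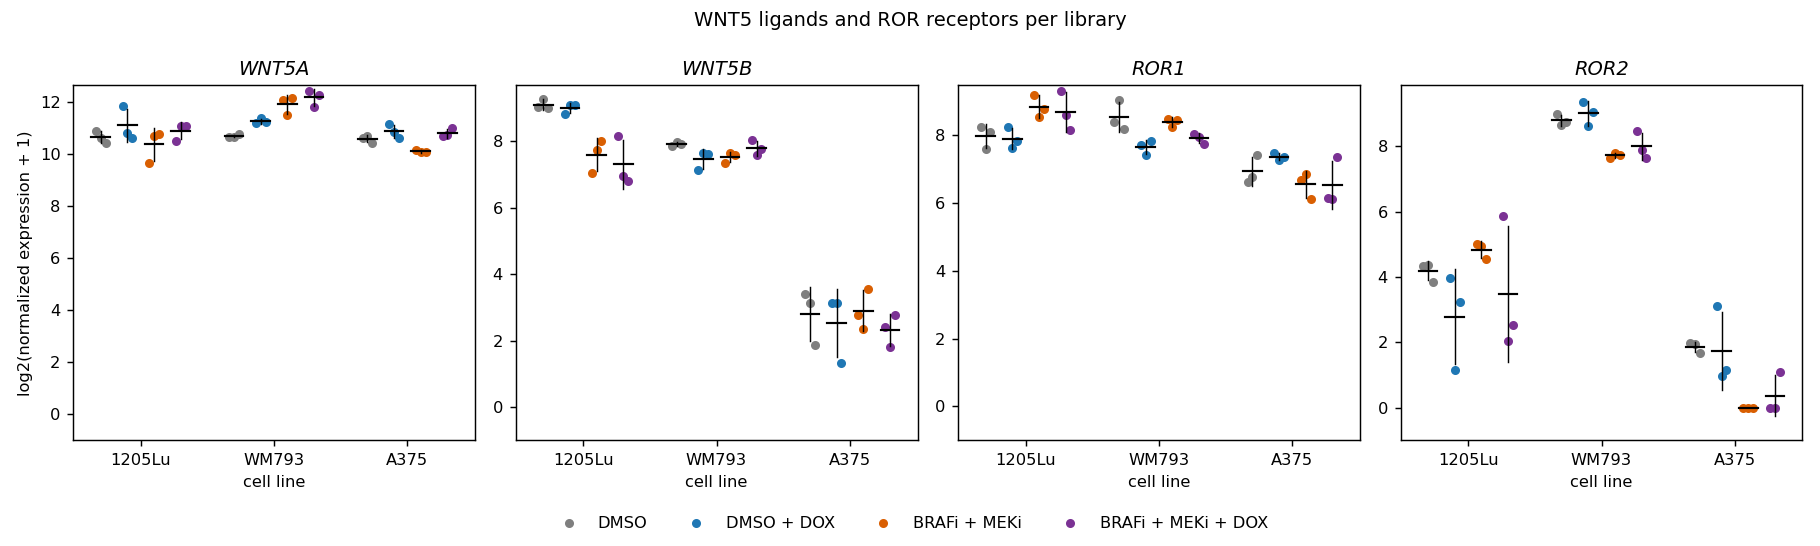
Expression of WNT5A, WNT5B, ROR1 and ROR2 in each library, as log2(normalized expression + 1), by cell line and treatment, with the mean and 1 SD of the 3 libraries of a group. WNT5A starts from a like level under DMSO in the 3 lines and has its highest mean in WM793 with BRAFi + MEKi + DOX. ROR2 is listed at 0 in all 3 A375 libraries given BRAFi + MEKi.

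ROR1 and ROR2 bind WNT5A. In 1205Lu, ROR1 was at 304, 192 and 272 under DMSO and at 590, 375.3 and 441 under BRAFi + MEKi, without overlap. The rise of 0.87 ± 0.295 (log2, adjusted p = 0.0380) failed in 6 of 12 fits that left out 1 library, with adjusted p up to 0.146 without DMSO replicate 2. The difference with DOX in both arms was 0.78 ± 0.295 (adjusted p = 0.0628). It passed with the replicate block (0.0109), with array weights (0.0218) and without BRAFi + MEKi + DOX replicate 3 (0.0262). ROR1 differences under BRAFi + MEKi were -0.15 in WM793 (95% interval -0.63 to 0.33) and -0.39 in A375 (-1.12 to 0.34). ROR2 was expressed mainly in WM793, where it was at 505, 404 and 432 under DMSO and at 199, 219 and 214 under BRAFi + MEKi. All treated libraries were below the controls, and the fall of 1.08 ± 0.229 passed (adjusted p = 0.00216), as did that of 1.01 ± 0.229 with DOX in both arms (adjusted p = 0.00409). A375 had ROR2 at 2.92, 2.85 and 2.21 under DMSO and listed at 0 in all 3 BRAFi + MEKi libraries. ROR2 entered the A375 test only through the groups without the drugs, with means of 2.66 under DMSO and 3.30 under DMSO + DOX against 0 and 0.378 with the drugs, so its selection favoured a fall. The difference (adjusted p = 0.0203, and 0.0159 with no filter on low values) missed the threshold in 4 fits that left out 1 library, with adjusted p from 0.0507 to 0.0532 without DMSO replicate 1 or 2 or BRAFi + MEKi replicate 1 or 2. For 1205Lu, ROR2 was at 19.4, 19.8 and 13.5 under DMSO and at 31.6, 29.7 and 22.3 under BRAFi + MEKi. These did not overlap, but the difference of 0.64 (95% interval -1.29 to 2.57) did not pass.

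LEF1, which binds DNA with beta-catenin, fell in every line. Under DMSO it was at 1678, 2165 and 1694 in 1205Lu, and at 539, 629 and 602 under BRAFi + MEKi. The change was -1.64 ± 0.202 (log2, adjusted p = 5.17e-05). In WM793 it went from 1090, 1292 and 994 to 563, 548 and 567, where it fell by 1.00 ± 0.126 (adjusted p = 3.28e-05). The A375 values were 488, 449 and 472 under DMSO and 107, 73.7 and 108 under BRAFi + MEKi, a change of -2.30 ± 0.191 (adjusted p = 7.06e-07). Treated libraries lay below all controls in each line, and with DOX in both arms the changes of -1.19, -1.22 and -1.43 passed too. LEF1 shares 279 exon bases with LEF1-AS1 on the opposite strand, whose mean was 18.2.

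TCF4, the helix-loop-helix factor, rose in 1205Lu and A375. It was at 1274, 754 and 1631 under DMSO in 1205Lu and at 6514, 4523 and 5337 under BRAFi + MEKi. This rise of 2.22 ± 0.253 (log2, adjusted p = 2.88e-05) had no overlap between groups. A375 went from 614, 679 and 370 to 1327, 1606 and 1280, by 1.38 ± 0.189 (adjusted p = 5.91e-05). In WM793, TCF4 was at 2199, 1957 and 2355 under DMSO and 1676, 2159 and 2326 under BRAFi + MEKi, and the difference was -0.09 (95% interval -0.43 to 0.26). TCF7L2 showed another pattern, with a fall of 1.17 ± 0.155 in WM793 (adjusted p = 5.21e-05) and differences of 0.22 in 1205Lu (adjusted p = 0.539) and -0.26 in A375 (adjusted p = 0.198).

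AXIN2, a negative feedback target of beta-catenin, did not pass without DOX in any line. In 1205Lu it was at 858, 583 and 655 under DMSO and at 862, 707 and 888 under BRAFi + MEKi (difference of 0.24, 95% interval -0.21 to 0.70). With DOX in both arms, 1205Lu went from 799.5, 624 and 477 to 1516, 1129 and 1125. Those groups were apart, and AXIN2 rose by 1.00 ± 0.212 (log2, adjusted p = 0.00322). In WM793 the difference was -0.29 without DOX (95% interval -0.93 to 0.36) and 0.58 with it (-0.06 to 1.22). A375 held AXIN2 at 52.8, 20.7 and 38.6 under DMSO and 14.9, 19.8 and 15.9 under BRAFi + MEKi (difference of -1.02, 95% interval -2.38 to 0.35). With DOX in both arms, A375 went from 15.6, 15.6 and 36.9 to 11.0, 12.7 and 1.32, without overlap. That difference of -1.59 ± 0.636 missed the threshold (adjusted p = 0.0738) and passed without BRAFi + MEKi + DOX replicate 2 (adjusted p = 0.0424).

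**Figure D4:**
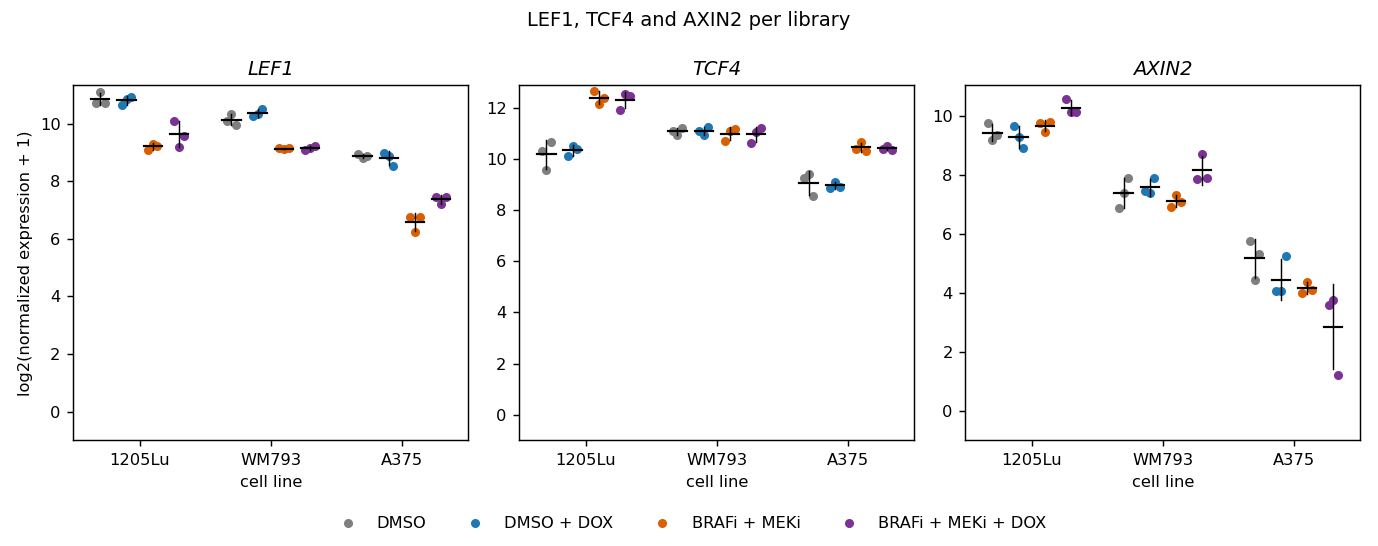
Expression of LEF1, TCF4 and AXIN2 in each library, as log2(normalized expression + 1), by cell line and treatment, with the mean and 1 SD of the 3 libraries of a group. LEF1 is lower with BRAFi + MEKi in each line, TCF4 is higher in 1205Lu and A375 and near its control level in WM793, and AXIN2 ranges from 1.32 in an A375 library to 1516 in a 1205Lu library.

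Whether the lines differed in their response to BRAFi + MEKi without DOX was tested on the difference itself, over 36 libraries. Between 1205Lu and WM793, 4 members differed (14.5% of all genes tested). Against A375, 2 members differed for 1205Lu (14.7%) and 5 for WM793 (22.8%). The count of 2, SFRP1 and ROR1, ran from 1 to 4 when 1 library was left out, with 4 without 1205Lu BRAFi + MEKi + DOX replicate 1, and was 4 with the replicate block. DKK1 gave the largest of these differences, its response in WM793 being higher than in A375 by 7.77 ± 0.998 (log2, adjusted p = 9.19e-07) and that in 1205Lu being -7.67 ± 0.998 against WM793 (adjusted p = 3.34e-06). WNT5A responded more in WM793 than in A375 by 1.70 ± 0.360 (adjusted p = 0.000776). TCF4 responded less in WM793 than in A375, with a difference of -1.47 ± 0.317 (adjusted p = 0.000918), and more in 1205Lu than in WM793 by 2.30 ± 0.317 (adjusted p = 7.11e-06). For LEF1, the WM793 response was higher than that of A375 by 1.30 ± 0.245 (adjusted p = 0.000209), which here means a smaller fall.

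DOX was compared with no DOX in each line to ask what NR2F1 induction did to the members. The DOX comparisons share libraries with the drug comparisons, so they are not independent of them. Under BRAFi + MEKi, limma called 0 members in 1205Lu (0.334% of all genes tested, 2 members at an unadjusted p under 0.05) and 0 in WM793 (0.204%, 3 members unadjusted). In A375 it called 1 (1.52%, 2 unadjusted). Under DMSO it called 0 in 1205Lu (0.00903%, 1 unadjusted), 1 in WM793 (0.512%, 5 unadjusted) and 0 in A375 (0.0492%, 0 unadjusted). In 1205Lu under DMSO the induced NR2F1 itself did not pass by limma (adjusted p = 0.412). The count of 0 there therefore says little about the members.

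The 2 calls were DKK1 and WNT5A. In WM793 given DMSO, DKK1 was at 5.84, 27.0 and 4.97 without DOX and at 582, 194 and 114 with it, every DOX library lying above the others. The rise was 4.49 ± 0.674 (log2, adjusted p = 0.0118), and the adjusted p was 0.0530 without DMSO + DOX replicate 1. Under BRAFi + MEKi in the same line the values were 293, 597 and 347 without DOX and 518, 1909 and 1602 with it. These overlapped, and the difference of 1.57 ± 0.674 did not pass (adjusted p = 0.574). In A375, DKK1 under BRAFi + MEKi was at 264, 256 and 199 without DOX and at 339, 291 and 251.1 with it, a difference of 0.29 (95% interval -0.06 to 0.64, adjusted p = 0.577). Under DMSO the A375 values were 1550, 1389 and 1223 without DOX and 1287, 1162 and 1011 with it, a difference of -0.27 (-0.61 to 0.08, adjusted p = 0.714). The groups overlapped in both. The study reported DKK1 as significantly increased by NR2F1 in WM793 and A375 under BRAFi + MEKi. It used DESeq2, a different test from limma on log2 values, and neither of these differences passed here. For 1205Lu the DKK1 differences were 1.49 with the drugs (-0.37 to 3.34) and 1.24 with DMSO (-0.62 to 3.10), and neither passed (adjusted p = 0.638 and 0.832). In A375 under BRAFi + MEKi, WNT5A was at 1153, 1068 and 1084 without DOX and at 1648, 1694 and 2041 with it. All DOX libraries were higher, by 0.70 ± 0.137 (adjusted p = 0.0171). The adjusted p rose to 0.0637 or 0.0980 when replicate 1 or replicate 2 given the drugs alone was left out, and to 0.0957 when replicate 3 with DOX was left out.

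WNT5A differences with DOX did not pass elsewhere. They were 0.52 in 1205Lu (95% interval -0.18 to 1.22) and 0.27 in WM793 (-0.10 to 0.64) under BRAFi + MEKi, and 0.46 in 1205Lu, 0.56 in WM793 and 0.28 in A375 under DMSO. The WM793 libraries under DMSO were apart, at 1627, 1620 and 1727 without DOX and 2325, 2645 and 2397 with it (adjusted p = 0.241). AXIN2 under BRAFi + MEKi was higher with DOX in every library of 2 lines. In 1205Lu it went from 862, 707 and 888 to 1516, 1129 and 1125, a difference of 0.61 ± 0.212 (adjusted p = 0.308). WM793 went from 120, 159 and 133 to 232, 418 and 235, a difference of 1.05 ± 0.299 (adjusted p = 0.285). In A375 all DOX libraries were lower, at 11.0, 12.7 and 1.32 against 14.9, 19.8 and 15.9 (-1.29 ± 0.636, adjusted p = 0.509). None of these 3 differences passed. ROR1 was lower in every DOX library of WM793, and neither difference passed. Under DMSO it was at 337, 527 and 292 without DOX and 210, 170 and 229 with it (adjusted p = 0.121). That difference passed with array weights (-1.11, adjusted p = 0.0178). Under BRAFi + MEKi, ROR1 was at 356, 301 and 352 without DOX and 261, 249 and 214 with it. LEF1 in A375 under BRAFi + MEKi was at 107, 73.7 and 108 without DOX and 175, 146 and 172 with it, a difference of 0.79 ± 0.191 that missed the threshold (adjusted p = 0.0662) but passed with the replicate block (0.0405), with array weights (0.00927), and without DMSO + DOX replicate 3 (0.0492) or BRAFi + MEKi replicate 3 (0.0478).

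**Figure D5:**
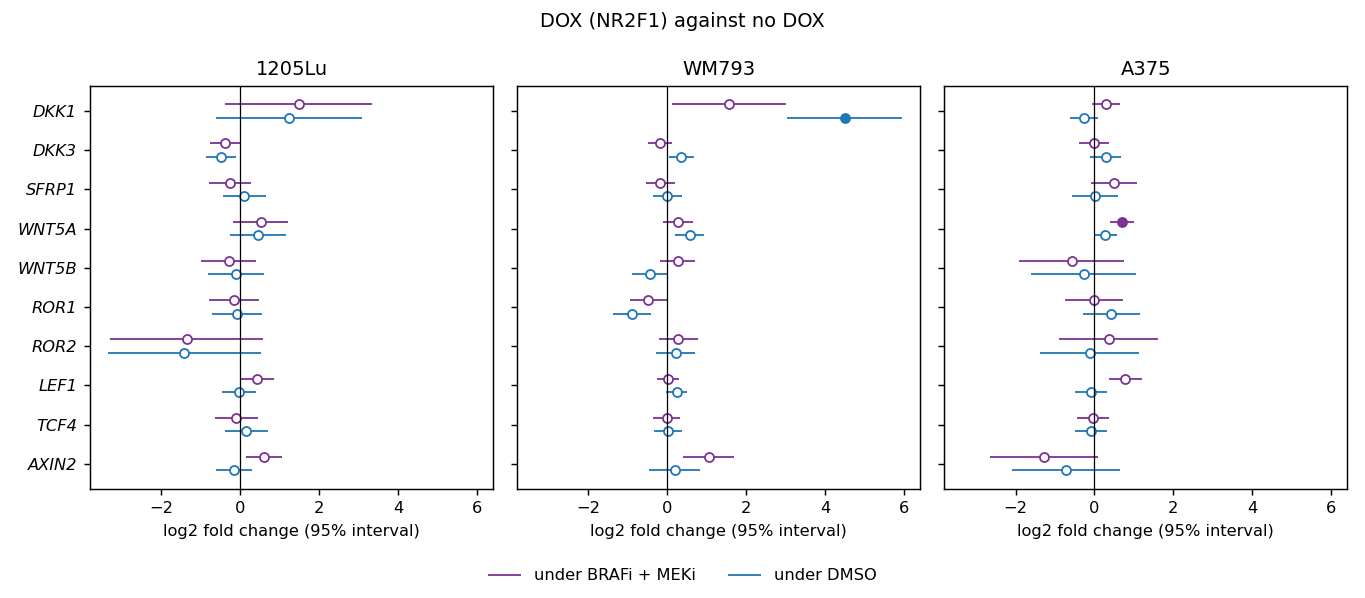
Log2 fold change of each member with DOX against without DOX, on the log2(value + 1) scale, under BRAFi + MEKi (purple) and under DMSO (blue), in 3 panels for the 3 cell lines. Points are limma estimates from 3 libraries a group, bars are 95% intervals, and filled points passed an adjusted p of 0.05. The filled points are DKK1 at 4.49 in WM793 under DMSO and WNT5A at 0.70 in A375 under BRAFi + MEKi.

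The difference between the DOX effect under BRAFi + MEKi and that under DMSO was tested with an interaction term. Limma called 0 members in each line, with 1, 3 and 3 members at an unadjusted p under 0.05 in 1205Lu, WM793 and A375. Over all genes, 0% were called in 1205Lu and WM793 and 0.46% in A375. For DKK1 in WM793 the term was -2.93 (95% interval -4.98 to -0.88, adjusted p = 0.750). Between lines, the DOX effect under BRAFi + MEKi was also called for 0 members in each of the 3 pairs (0.138%, 0.179% and 0.881% of all genes), with 0, 2 and 2 members unadjusted, in the order 1205Lu and WM793, 1205Lu and A375, WM793 and A375. The widest was AXIN2, 2.34 ± 0.624 higher in WM793 than in A375 (adjusted p = 0.0726). It passed with array weights (0.0317) and when A375 replicate 1 (0.0301) or 2 (0.0165) given drugs and DOX was left out.

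Other WNT genes were taken from a list of 100 in 9 roles, of which 85 were tested in 1205Lu, 84 in WM793 and 87 in A375. Under BRAFi + MEKi without DOX, 32 changed in 1205Lu (16 rose, 16 fell), 45 in WM793 (24 and 21) and 36 in A375 (20 and 16). These are 37.6%, 53.6% and 41.4% of the list genes tested, beside 30.9%, 37.3% and 39.5% of all genes, so that the A375 share is near that of all genes. Among 13 receptors and co-receptors tested in each line, 1205Lu had 5 falls, WM793 had 7 and A375 had 3, beside falls of 14.4%, 16.9% and 19% of all genes. In each line 2 of the 13 rose. FZD1 fell by 3.09 in 1205Lu and 2.60 in WM793 (log2, adjusted p = 1.27e-07 and 4.85e-09), and its A375 difference was -0.60 (adjusted p = 0.0567). FZD7 fell in WM793 by 2.57 (adjusted p = 2.97e-07). In planar polarity and non-canonical genes, 4 of 12 rose in 1205Lu, 7 in WM793 and 4 in A375, beside 16.5%, 20.4% and 20.5% of all genes, and 0, 1 and 2 fell. DAAM1, a formin of the non-canonical branch, rose by 1.86 in WM793 (adjusted p = 6.57e-05), and the polarity cadherins CELSR2 and CELSR3 rose by 1.34 and 1.17 in A375 (adjusted p = 1.13e-05 and 6.79e-06).

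Of the tested ligands, 0 of 11 rose and 2 fell in 1205Lu, 4 of 9 rose and 1 fell in WM793, and 0 of 12 rose and 3 fell in A375. The shares of all genes that rose were 16.5%, 20.4% and 20.5%, and those that fell 14.4%, 16.9% and 19%. Of the 4 rises in WM793, WNT9A passed the filter only through the groups with the drugs, and of the 3 falls in A375, WNT7A had a mean under 1 with BRAFi + MEKi. WNT6 rose by 1.92 and WNT10A by 1.63 in WM793 (log2, adjusted p = 0.0185 and 0.0130), WNT7B fell by 4.02 in 1205Lu (adjusted p = 8.05e-08) and WNT10B fell by 2.62 in A375 (adjusted p = 1.20e-05). Among R-spondins and their receptors, LGR4 rose by 1.40 in 1205Lu (adjusted p = 0.000924) and 3.41 in A375 (adjusted p = 2.13e-08), RSPO2 rose by 2.93 in 1205Lu (adjusted p = 0.00421) and LGR5 fell by 3.65 in WM793 (adjusted p = 2.15e-05). Of the other secreted or membrane inhibitors, 1 rose and 1 fell of 6 tested in 1205Lu, 2 and 2 of 7 in WM793, and 2 and 2 of 8 in A375, beside the 30.9%, 37.3% and 39.5% of all genes that changed. SFRP4 rose by 2.43 in 1205Lu and 5.94 in WM793 (adjusted p = 0.0162 and 0.000172), KREMEN1 rose by 1.15 in A375 (adjusted p = 0.000201), and KREMEN2, a DKK1 co-receptor, fell by 1.67 in 1205Lu and 2.69 in A375 (adjusted p = 0.000965 and 0.00271).

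Downstream, CCND1, the cyclin D1 gene and a target of both beta-catenin and ERK signalling, fell by 1.21 in 1205Lu (log2, adjusted p = 0.00463) and 2.69 in A375 (adjusted p = 3.94e-06). TNFRSF19 rose by 1.60 in 1205Lu (adjusted p = 0.000687). CTNNBIP1, which blocks beta-catenin from TCF factors, fell by 2.50 in WM793 (adjusted p = 1.05e-06), and the co-repressor TLE4 fell by 1.99 in A375 (adjusted p = 1.59e-06). Of 80 list genes tested in every line, 6 rose in all 3 lines, namely LGR4, CSNK1A1, TLE1, VANGL2, CELSR2 and CELSR3, and 5 fell in all 3, namely WNT10B, FZD7, GSK3B, TCF7L1 and CCND1. Of all genes tested in every line, 5.77% rose and 6.07% fell in all 3, so these counts are near the background. With DOX compared with no DOX, 1 of 85 list genes was called in 1205Lu under BRAFi + MEKi (0.334% of all genes) and 1 of 84 in WM793 under DMSO (0.512%). In these, 16 and 15 list genes had an unadjusted p under 0.05. Limma called 0 in the other 4 comparisons, where 6 to 12 had an unadjusted p under 0.05. The called genes were KREMEN2, which rose by 1.75 in 1205Lu under BRAFi + MEKi (adjusted p = 0.0284), and GSK3B, which fell by 0.71 in WM793 under DMSO (adjusted p = 0.0480).

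The order of the 12 group means shows how far DKK1 and WNT5A ranged. DKK1 was highest in A375 given DMSO (1387 ± 163), followed by WM793 given BRAFi + MEKi + DOX (1343 ± 731), and lowest in 1205Lu given BRAFi + MEKi (5.65 ± 5.44). Of 11 pairs of neighbours in that order, 9 overlapped between libraries. WNT5A was highest in WM793 given BRAFi + MEKi + DOX (4709 ± 985) and lowest in A375 given BRAFi + MEKi (1102 ± 45.4), and 10 of 11 neighbouring pairs overlapped.

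Across the 36 libraries, the genes whose log2 values followed DKK1 most closely among 14650 genes were CEP89 (Pearson r = 0.873), LINC03061 (0.863), TM4SF18 (0.856), ARHGAP18 (0.853) and GCAWKR (0.845). For WNT5A they were LIN54 (0.873), MNS1 (0.871), CENPQ (0.848), EIF2AK2 (0.845) and FAS (0.826). DKK1 and WNT5A themselves had r = 0.361. With each line's mean removed, a setting added after the values were seen, r for this pair was 0.658. The closest genes were then STC2 (0.822), CEP89 (0.821), CCDC9 (0.779), IL7R (0.776) and CYTH3 (0.773) for DKK1, and FGF2 (0.828), FAS (0.826), LIN54 (0.801), ZNF273 (0.795) and WHAMM (0.795) for WNT5A. All these values are descriptions, since the libraries share lines and treatments and fall into groups by line.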

How the data were processed

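RNA-Seq libraries of 36 samples (12 groups of 3) were used. Per the labels and the study's methods, the authors aligned reads to GRCh38 with STAR, estimated gene abundance with RSEM and normalized it with DESeq2. The deposited signal values are normalized expression, not counts. Each file held 60656 genes, of which 60401 matched a symbol in GENCODE 44. Genes whose mean reached 1 in some group were tested on log2(value + 1) by limma's moderated test with a trend (limma 3.58.1, R 4.3.3), 12 libraries per line or all 36 between lines, with Benjamini-Hochberg adjustment over all genes and a threshold of 0.05. Fold changes on this scale understate changes of low genes. The code was tested on simulated data. The study's methods state that replicates came from independent experiments.

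The members and gene lists were chosen with earlier results of these data known. The text names the 10 members, TCF7L2, NR2F1 and DUSP6 as checks, USP47 as an overlapping gene and, per line, list genes with a mean of at least 30, namely up to 4 called rises and 4 falls under BRAFi + MEKi, up to 3 each with DOX, and genes called in all lines, these last added after their values were seen. Marker genes were fixed by hand. Likeness was Pearson's r, for genes whose mean reached 30. Alternatives were a pseudocount of 0.1, no filter, libraries rescaled to the same total, the replicate block, array weights, only the libraries compared, and leaving out each library. Figures and tables were made with Python 3.11.15, numpy 2.4.6, pandas 2.3.3 and matplotlib 3.10.9.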

Additional observations from a re-analysis of the deposited data

Results flagged for a closer look

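The responses to BRAFi + MEKi without DOX that differed between 2 lines, by a test of the difference itself (limma, 36 libraries), were singled out. Between 1205Lu and WM793 the log2 difference was -7.67 for DKK1, -1.08 for DKK3, -1.48 for WNT5A and 2.30 for TCF4. Between 1205Lu and A375 it was 1.54 for SFRP1 and 1.26 for ROR1. Between WM793 and A375 it was 7.77 for DKK1, 0.62 for DKK3, 1.70 for WNT5A, 1.30 for LEF1 and -1.47 for TCF4. ROR1 for 1205Lu against A375 (adjusted p = 0.0464) passed in 16 of 41 alternatives, and DKK3 for WM793 against A375 (adjusted p = 0.0477) also in 16 of 41, whereas the other 9 passed in all 41. Line and medium cannot be told apart in the comparisons with A375.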

How the results depend on the processing

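Of 24 counts of called members, 20 stayed within 1.5 times the stated count under every alternative. The counts that stayed include those at 0 in every fit, where such a ratio has no meaning. The DOX counts within a line that were not 0 are among those that moved. In WM793, 2 members passed for DMSO + DOX against DMSO with array weights instead of 1, and 0 to 1 without a single library. In A375, 2 passed for BRAFi + MEKi + DOX against BRAFi + MEKi with the replicate block or array weights instead of 1, and 0 to 2 without a single library. For the response of 1205Lu against A375, the count of 2 became 4 with the replicate block, 1 after libraries were rescaled to the same total or with no filter on low values, and 1 to 4 without a single library. For the DOX effect of WM793 against A375 under BRAFi + MEKi, 2 passed with array weights instead of 0, and 0 to 1 without a single library.

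Of 6359 recomputed values of single members, 6064 kept direction and side of the threshold, 92 lost a call, 43 gained one, 160 changed sign without passing in either fit, and 0 reversed a called direction. DKK1 in 1205Lu under BRAFi + MEKi passed in 4 of 18 alternatives. ROR1 with DOX in both arms in 1205Lu passed with the replicate block (adjusted p = 0.0109), and LEF1 with DOX under BRAFi + MEKi in A375 passed with it (adjusted p = 0.0405) and with array weights (0.00927). For 1205Lu against WM793, the block gave calls to the SFRP1 DMSO level (0.0084) and response (0.0293) and took that of the WNT5B DMSO level (0.0816). It also gave calls to the ROR2 (0.0428) and TCF4 (0.0460) responses of 1205Lu against A375, and to the SFRP1 response of WM793 against A375 (0.0354). The causes were not tested. Whether replicate numbers pair libraries is not stated. Deviations of same-numbered libraries correlated with r from 0.0047 to 0.298 over genes whose line mean was 1 or more, with 23 of 54 pairs over 0.1. Over genes with a line mean of 30 or more, r ran from -0.038 to 0.544, with 43 of 54 pairs over 0.1. Pairing would have been taken only with every pair over 0.1, which held at neither minimum. It was thus not settled, and the fits stayed without the block. At the lower minimum every r was nevertheless above 0. If replicate numbers do pair libraries, the main tests ignore that pairing, and only the fits with the block take it in. Reads per library are unknown, so low values should be read with care, and precision was not compared between members. Low values include ROR2, WNT5B and AXIN2 in A375, DKK1 and ROR2 in 1205Lu, and DKK1 in WM793 given DMSO.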
